A study of Homo sapiens with 11 samples.

Results

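Genomic imprinting leaves only the copy of a gene inherited from one parent active, and many imprinted genes act on fetal growth and are switched down after birth. The genes described here are imprinted fetal growth genes chosen by name: DLK1, MEG3, PEG3, PEG10, MEST, PLAGL1, NNAT, SNRPN and GRB10. Of these 9 genes, 8 were found among the 19990 genes of the count table, and PEG3 was not analysed here. The cells were cardiomyocytes made from the established human iPSC line WTC11 (iPSC, induced pluripotent stem cell) at passage 63, with no genetic change or drug contrast between groups. All wells came from a single differentiation directed with CHIR99021 and then IWP2, and were then kept in RPMI1640 with B27 containing insulin. Poly(A) RNA libraries were made from 4 wells on Day 30 of culture, 3 on Day 60 and 4 on Day 113. The replicates were therefore wells of a single differentiation of a single line, so p-values measure only the spread between wells, and day of culture cannot be told apart from day of collection.

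At an imprinted cluster, methylation laid down in the egg or sperm at a control region decides which parental copy is transcribed, and the mark is kept through cell division by the DNA methyltransferase DNMT1, zinc finger proteins such as ZFP57 and the corepressor TRIM28. DLK1, PEG10, MEST, PLAGL1, NNAT and SNRPN are expressed from the paternal copy, MEG3 from the maternal copy, and GRB10 from one or the other copy depending on tissue and promoter. The counts sum both parental copies, so they give the level of each gene and carry no information on which copy was read.

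The libraries held 24.1 to 34.5 M counts (M, units of 1000000), and counts of wells within a day varied beyond sampling noise (chi-square over its degrees of freedom 11.4 to 84.0). Levels are given as counts per 1000000 counts (CPM) after TMM scaling, and tests are the quasi-likelihood F-test of edgeR with Benjamini-Hochberg adjustment over all 19990 genes and a threshold of 0.05. The cardiomyocyte label was checked against 8 markers (TNNT2, ACTN2, MYH6, MYH7, TTN, RYR2, MYL7 and NKX2-5), all measured, whose summed level was 26654 to 38001 CPM in the 11 libraries and none of which was at 0. Markers of other cell types were present and moved with day. The summed level of 8 endoderm markers was 451 to 1332 CPM at Day 30, 47.5 to 57.0 at Day 60 and 11.7 to 42.1 at Day 113. The 8 fibroblast markers summed to 3353 to 7707 CPM at Day 30, 2070 to 3570 at Day 60 and 5431 to 13041 at Day 113. The 8 endothelial markers summed to 76.0 to 109 CPM, 49.1 to 79.4 CPM and 221 to 846 CPM on the same days. LIN28A, a marker of pluripotent cells, was at 0 in all 4 Day 113 libraries and was the only marker at 0 throughout a day.

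Between Day 30 and Day 60, 3 of the 8 imprinted genes fell (DLK1, MEG3 and MEST). These 3 genes were 37.5% of the 8, where 10.3% of all 19990 genes passed the same test in either direction and 5.91% fell. Between Day 60 and Day 113, 2 genes rose (DLK1 and GRB10), or 25.0% of the 8, where 24% of all genes passed the test and 12.9% rose. From Day 30 to Day 113, MEG3, MEST and NNAT fell and PEG10 rose, 4 of 8 or 50.0%, where 34.5% of all genes passed the test, 17.2% lower and 17.3% higher. The share at Day 113 against Day 60 was thus near that of all genes. The median log2 fold change of the 8 genes was -0.64, 0.18 and -0.10 in the 3 comparisons in that order, and that of all genes was -0.01, 0.00 and -0.02. The 8 genes were chosen by name, with earlier results of these data known, so these shares describe the genes and were not tested as a set. The shares of all genes here and below were not matched for level: they include many low genes, and 11939 genes besides the 8 had a mean of at least 5 CPM.

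Over the 3 days together, 6 of the 8 genes changed (75.0%, where 37.1% of all genes did), and PLAGL1 and SNRPN did not pass the test. Values of Day 30 and Day 60 did not overlap for 4 of 8 genes (MEG3, MEST, NNAT and GRB10), where 24.8% of all genes did not overlap. Values of Day 60 and Day 113 did not overlap for DLK1 and NNAT, 2 of 8, where 30.6% of all genes did not. Values of Day 30 and Day 113 did not overlap for MEG3, PEG10, MEST and NNAT, 4 of 8, where 35.1% of all genes did not. The change of the second interval (Day 60 to Day 113) differed from that of the first (Day 30 to Day 60) for DLK1, MEG3, MEST and GRB10. These are 4 of 8 genes, where 9.34% of all genes passed this test, and for all 4 the second change was the higher one, as for 4.97% of all genes. The other 4 genes did not pass it. These 4 calls rest on the Day 60 wells: without Day 60 replicate 1, or without Day 60 replicate 3, 0 of the 8 genes passed by edgeR, although these 4 kept an unadjusted p under 0.05 in both fits. The loss was not particular to them: of all 19990 genes, 643 and 774 passed in these fits, against 1868 with all libraries.

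**Figure D1:**
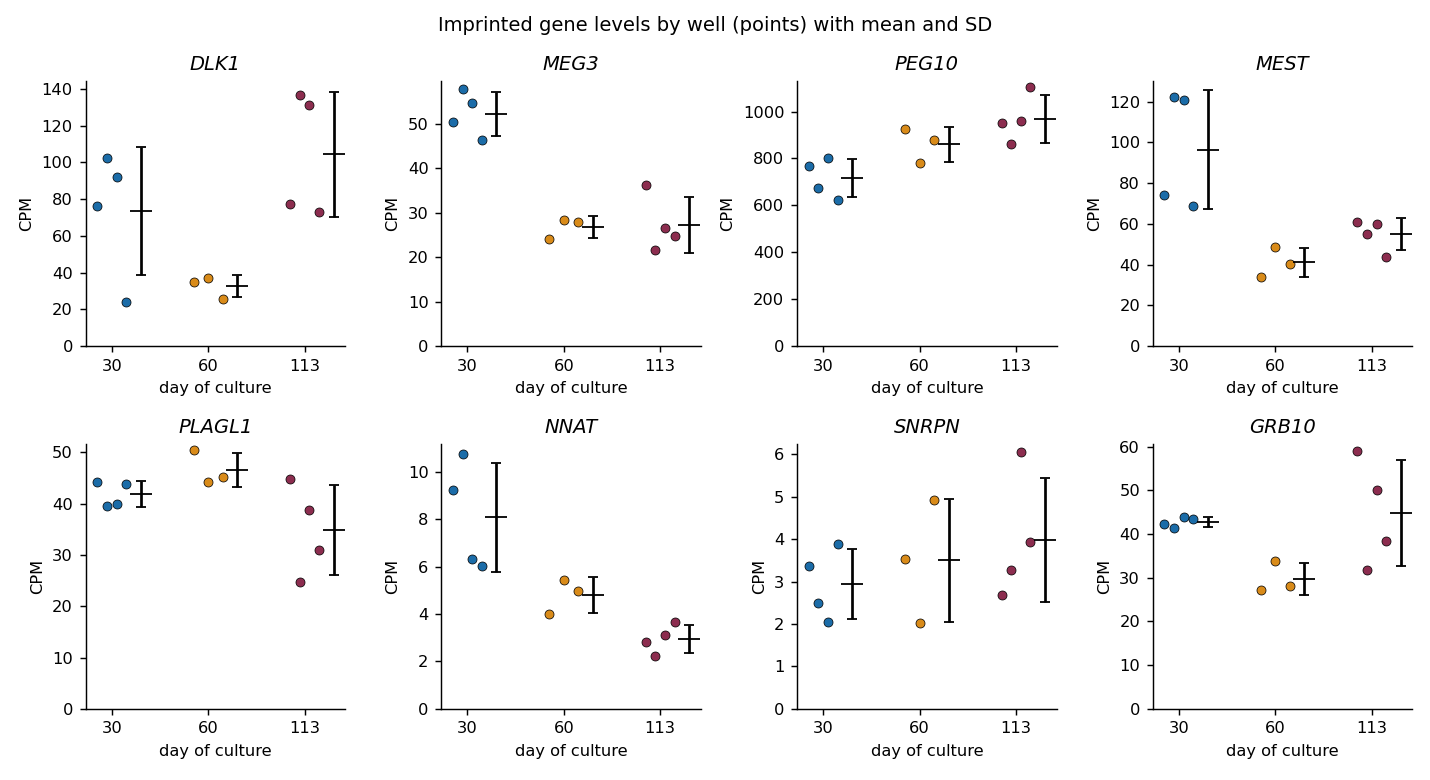
Level of each imprinted gene in every well (points, CPM on a linear axis starting at 0) by day of culture, with the mean and SD beside the points (n = 4, 3 and 4 wells). MEG3 and MEST lay lower at Days 60 and 113 than in every Day 30 well, DLK1 was low at Day 60 and in 1 Day 30 well, and PEG10 was far above the other 7 genes on every day.

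**Figure D2:**
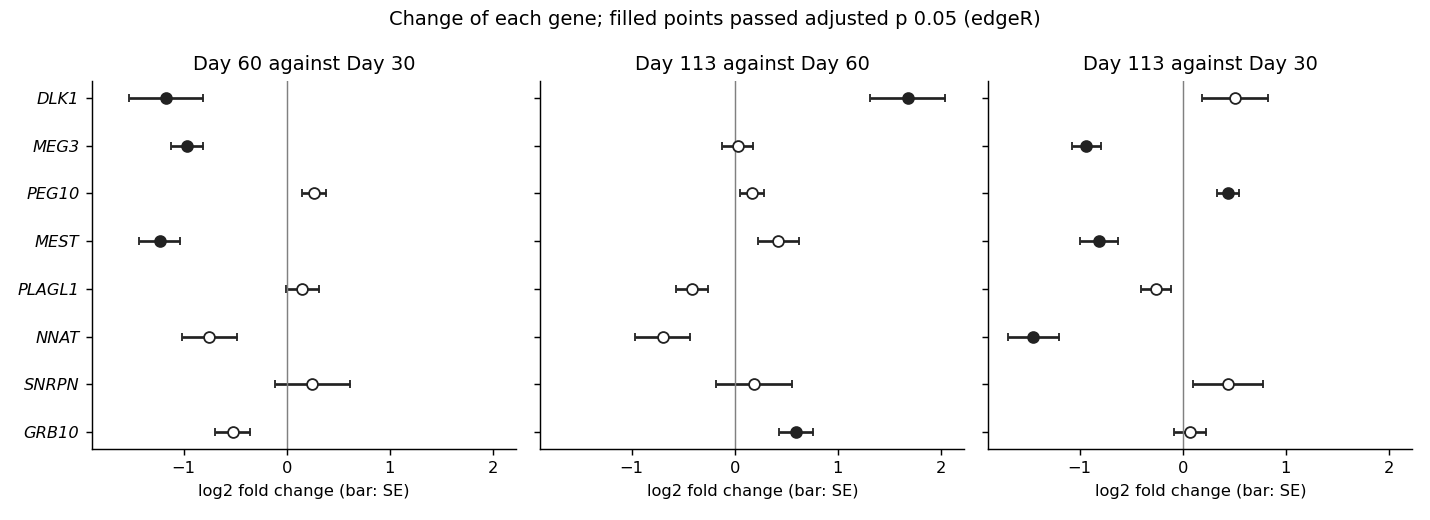
Log2 fold change of each gene between each pair of days (points, with the standard error as bars), filled where the adjusted p was under 0.05. MEG3 and MEST lay left of 0 against Day 30 on both later days, DLK1 changed side between the intervals, and SNRPN and PLAGL1 were open points throughout.

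DLK1 and MEG3 share an imprinted cluster on chromosome 14. DLK1 (chr14:100725705-100738224, plus strand, GRCh38, GENCODE 29) encodes a transmembrane protein with EGF-like repeats, related to the Notch ligands, that keeps precursor cells such as preadipocytes from maturing. MEG3 (chr14:100779410-100861031, plus strand) is a long noncoding RNA. The exons of DLK1 overlapped no other annotated gene.

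DLK1 measured 76.5, 102, 91.9 and 23.9 CPM in Day 30 wells 1 to 4, 35.0, 37.3 and 25.8 CPM at Day 60, and 77.4, 137, 131 and 72.9 CPM at Day 113. The fourth Day 30 well was below all other wells of the series, so Day 30 and Day 60 overlapped, while all 4 Day 113 wells were above all 3 Day 60 wells. The means were 73.6 ± 34.8 (SD, n = 4), 32.7 ± 6.06 (SD, n = 3) and 105 ± 34.0 CPM (SD, n = 4). DLK1 thus fell 2.25-fold by Day 60 (log2 fold change -1.17 ± 0.36 SE, adjusted p = 0.048) and rose 3.20-fold from Day 60 to Day 113 (1.68 ± 0.36, adjusted p = 0.0037). Day 113 against Day 30 gave 0.51 ± 0.32 with adjusted p = 0.25, and passed in 1 of 20 alternatives, with a replicate block (0.64, adjusted p = 0.026). The first-interval fall lay at the threshold. It passed in 7 of 20 alternatives, and without the fourth Day 30 well it was -1.47 with adjusted p = 0.0011. It was lost without Day 30 replicate 1, 2 or 3, without any 1 of the Day 60 wells or without Day 113 replicate 3, with adjusted p up to 0.20. It was also lost with 2 other scalings, a filter on low genes, robust dispersions, limma-voom (adjusted p = 0.14) and DESeq2 (adjusted p = 0.078).

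Fibroblast markers moved alongside DLK1. The fourth Day 30 well, lowest for DLK1, also had the lowest fibroblast sum of its day (3353 CPM against 4509 to 7707), and the Day 60 sums (2070 to 3570 CPM) lay below the other 3 Day 30 wells. Of the 8 fibroblast markers, 3 fell and 1 rose by Day 60, and 5 rose and 1 fell from Day 60 to Day 113. At Day 113 the well with the highest fibroblast sum (13041 CPM) had 77.4 CPM of DLK1, and the well with the highest DLK1 (137 CPM) had a fibroblast sum of 6758. Other markers moved too. The fourth Day 30 well also had the lowest endoderm sum of its day (451 CPM against 1007 to 1332). Endoderm sums were 47.5 to 57.0 CPM at Day 60 and 11.7 to 42.1 CPM at Day 113, when DLK1 was higher. The sums of 5 proliferation markers were 291 to 366, 470 to 691 and 182 to 346 CPM on the 3 days. The part of these markers in the DLK1 result was not tested. In bulk RNA, fewer cells of a type and less RNA per cell cannot be told apart.

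**Figure D3:**
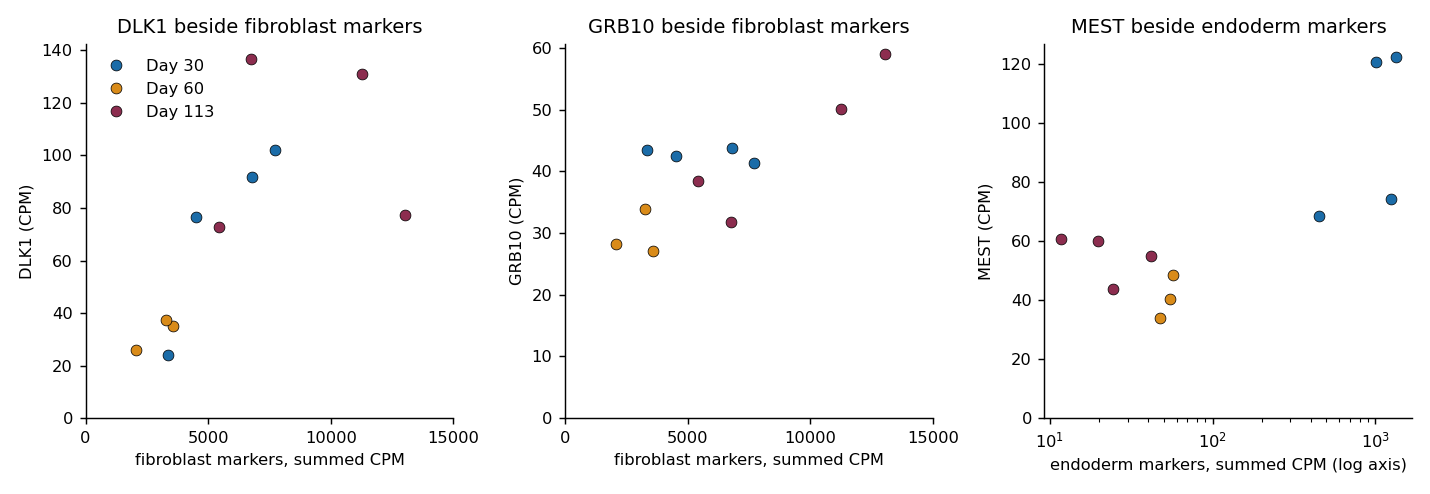
DLK1 and GRB10 (CPM) against the summed level of 8 fibroblast markers, and MEST against the summed level of 8 endoderm markers (the last on a log axis), with 1 point per well coloured by day. The Day 60 wells are low for both DLK1 and the fibroblast markers, and the 4 Day 30 wells are high for both MEST and the endoderm markers.

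MEG3 measured 50.4, 57.8, 54.6 and 46.3 CPM at Day 30, 24.03, 28.4 and 27.9 CPM at Day 60, and 36.2, 21.7, 26.6 and 24.7 CPM at Day 113. Every Day 30 well was above every later well, and Day 60 and Day 113 overlapped. MEG3 fell 1.95-fold by Day 60 (-0.96 ± 0.16, adjusted p = 9.0e-04) and was 1.91-fold lower at Day 113 than at Day 30 (-0.94 ± 0.14, adjusted p = 1.1e-04). Between Day 60 and Day 113 the change was 0.03 ± 0.15 (adjusted p = 0.92). Both falls passed the test in 20 of 20 alternatives.

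Within the cluster the pair moved apart. The log2 count ratio of MEG3 to DLK1 within a library averaged -0.31 ± 0.84 at Day 30 (SD, n = 4), -0.27 ± 0.34 at Day 60 (SD, n = 3) and -1.90 ± 0.71 at Day 113 (SD, n = 4). The first 3 Day 30 wells lay at -0.60, -0.82 and -0.75, and the fourth, with little DLK1, at 0.95. All 4 Day 113 wells, from -2.66 to -1.10, were below every earlier well. The other measured transcripts of the cluster were scarce: RTL1 and DIO3 averaged under 1 CPM on every day. MEG8, a noncoding RNA of the cluster named after its values were seen, averaged 2.91, 2.34 and 1.11 CPM and fell by 1.38 on the log2 scale from Day 30 to Day 113 (SE 0.47, adjusted p = 0.033). That call was lost without Day 30 replicate 2, 3 or 4 or without Day 113 replicate 4 (adjusted p up to 0.079).

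A MEG3 promoter is shown because the gene was lower in every later library than at Day 30. Methylation was not measured. The stretch is the 250 bases before a RefSeq start of MEG3 (chr14:100825858-100826107, GRCh38.p14, plus strand) and lies inside the GENCODE span given above. CG dinucleotides, where methylation can occur, are in capitals.
MEG3: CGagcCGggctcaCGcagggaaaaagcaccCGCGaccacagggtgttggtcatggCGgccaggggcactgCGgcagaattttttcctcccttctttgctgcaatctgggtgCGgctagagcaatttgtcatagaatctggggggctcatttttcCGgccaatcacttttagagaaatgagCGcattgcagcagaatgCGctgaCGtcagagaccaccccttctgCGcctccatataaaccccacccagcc
The stretch holds 13 CG dinucleotides. With the 50 bases after the start, the window of 300 bases holds 19, where the median of all 35116 promoter windows is 14. It is 1 of 3 overlapping MEG3 windows, which hold 17 to 19.

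**Figure D4:**
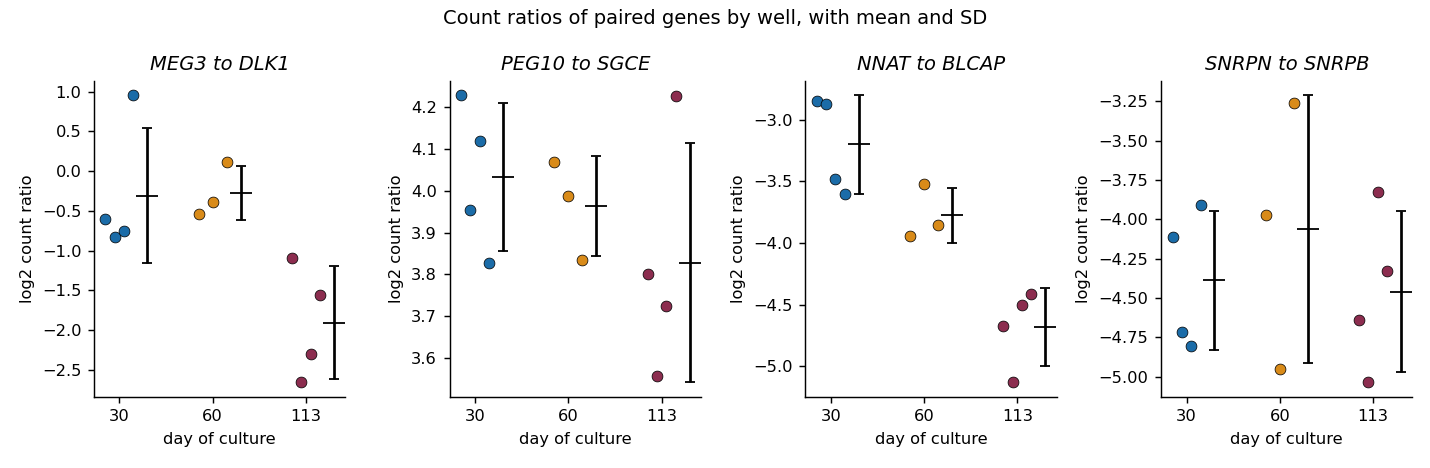
Log2 count ratio of 4 gene pairs in every well (points) by day, with mean and SD; the vertical axes differ in range and do not start at 0. MEG3 to DLK1 and NNAT to BLCAP were lowest in the 4 Day 113 wells, with no overlap with earlier days, and the other pairs overlapped on all days.

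Notch pathway genes were counted as the surroundings of DLK1. Of 19 listed, 16 were measured. By Day 60, 3 fell (18.8%), from Day 60 to Day 113 5 rose and 3 fell (50.0%), and from Day 30 to Day 113 2 rose and 6 fell (50.0%), with medians of -0.26, 0.13 and -0.29 on the log2 scale. The shares of all genes were 10.3%, 24% and 34.5%. DLL4, an endothelial Notch ligand, averaged 8.71, 4.95 and 43.5 CPM and rose by 2.32 ± 0.42 from Day 30 to Day 113 (adjusted p = 4.9e-04). HEYL, a target of Notch signalling, rose by 2.51 ± 0.32 (adjusted p = 2.0e-05), and HEY2, a repressor of the ventricular myocardium, fell by 1.36 ± 0.11 (adjusted p = 2.2e-07). HEY1, a related repressor known from the atria, fell by 0.81 ± 0.24 (adjusted p = 0.016), a call lost without Day 30 replicate 2 (adjusted p = 0.053) or Day 113 replicate 3. All 8 endothelial markers rose from Day 60 to Day 113 alongside DLL4, and their part in it was not tested.

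MEST (chr7:130486171-130506465, plus strand) encodes a membrane protein of the endoplasmic reticulum with an alpha/beta hydrolase fold, known from the embryonic mesoderm. It measured 74.2, 122, 121 and 68.6 CPM at Day 30, 34.1, 48.6 and 40.4 CPM at Day 60, and 60.8, 54.9, 60.1 and 43.8 CPM at Day 113. All Day 30 wells were above all later wells. MEST fell 2.35-fold by Day 60 (-1.23 ± 0.20, adjusted p = 0.0010) and was 1.76-fold lower at Day 113 than at Day 30 (-0.81 ± 0.18, adjusted p = 0.0026). From Day 60 to Day 113 the change was 0.42 ± 0.20 (adjusted p = 0.14). That change passed in 1 of 20 alternatives, with a replicate block (0.56, adjusted p = 0.011). Both falls passed the test in 20 of 20 alternatives.

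All 8 endoderm markers fell by Day 60, alongside MEST, and the fourth Day 30 well had both the lowest MEST and the lowest endoderm sum of its day (68.6 and 451 CPM). The first Day 30 well had little more MEST (74.2 CPM) beside an endoderm sum of 1248. From Day 60 to Day 113, 4 of the 8 endoderm markers fell further. At Day 113 the well with the lowest endoderm sum (11.7 CPM) had the highest MEST (60.8 CPM). Fibroblast sums ranked the wells in the order of MEST at Day 30 (4509, 7707, 6796 and 3353 CPM in wells 1 to 4). They did so at Day 113 too (13041, 6758, 11269 and 5431 CPM). At Day 60 the well with the highest fibroblast sum (3570 CPM) had the lowest MEST (34.1 CPM). MEG3 (50.4, 57.8, 54.6 and 46.3 CPM) also ranked the Day 30 wells as the fibroblast sums did. At Day 60 the well with the highest fibroblast sum had the lowest MEG3 (24.03 CPM). At Day 113 the well with the highest sum had the highest MEG3 (36.2 CPM), but the lowest MEG3 (21.7 CPM) was not in the well with the lowest sum. The part of endoderm and fibroblast cells in the MEST and MEG3 results was not tested.

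A MEST promoter window is shown because MEST, like MEG3, fell by Day 60 and stayed lower. Of 5 MEST windows, it is the one with the most CG dinucleotides, and it covers the 250 bases before a RefSeq start (chr7:130491835-130492084, GRCh38.p14, plus strand), with CG in capitals.
MEST: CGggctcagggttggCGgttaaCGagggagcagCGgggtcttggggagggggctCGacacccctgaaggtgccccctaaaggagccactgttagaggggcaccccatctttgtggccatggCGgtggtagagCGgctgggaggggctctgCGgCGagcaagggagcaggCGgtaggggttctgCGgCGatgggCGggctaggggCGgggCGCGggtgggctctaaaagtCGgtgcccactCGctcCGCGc
The stretch holds 20 CG dinucleotides, and the window of 300 bases holds 25. The motif TGCCGC, recognised by ZFP57, was searched on both strands and overlaps a CG, so it is not independent of the CG count. It occurs 3 times in this window of 300 bases, but nowhere in the 250 bases printed. The other 4 MEST windows hold it 0 to 2 times and hold 13 to 22 CG. The MEG3 windows hold 1 match each, and 16.7% of all windows hold at least 1. A match is a run of letters and was not tested for binding.

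Of 6 listed neighbours of MEST on chromosome 7, 5 were measured. CPA4, a carboxypeptidase, averaged 7.17, 2.50 and 5.34 CPM and fell by 1.52 ± 0.43 by Day 60 (adjusted p = 0.031), a call lost without Day 30 replicate 1, 2 or 3 or Day 60 replicate 2 or 3 (adjusted p up to 0.14). COPG2IT1, a noncoding RNA antisense to COPG2 and named after its values were seen, averaged 4.44, 2.81 and 1.61 CPM. It fell by 1.46 ± 0.32 from Day 30 to Day 113 (adjusted p = 0.0022). MEST shares 484 exon bases with the antisense gene MESTIT1 and 228 with COPG2 on the opposite strand. Whether counting used strand is not given in the sources used here, so reads in those stretches cannot be assigned.

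GRB10 (chr7:50590063-50793462, minus strand) encodes an adaptor that binds the insulin and IGF1 receptors and restrains their signalling and growth. It measured 42.4, 41.3, 43.8 and 43.5 CPM at Day 30, 27.2, 33.8 and 28.2 CPM at Day 60, and 59.1, 31.8, 50.1 and 38.4 CPM at Day 113. The Day 30 wells spread little (SD 1.15 CPM) and lay above all Day 60 wells, while the Day 113 wells spread over both. The fall by Day 60 was 1.44-fold and missed the threshold (-0.52 ± 0.17, adjusted p = 0.060). It passed with only these 2 days in the fit (adjusted p = 0.0045), with DESeq2 (0.038) and without Day 113 replicate 1 (0.021) or 2 (0.016). GRB10 rose 1.51-fold from Day 60 to Day 113 (0.59 ± 0.17, adjusted p = 0.018), and Day 113 against Day 30 gave 0.07 ± 0.15 (adjusted p = 0.77). The rise was lost without Day 60 replicate 1 (adjusted p = 0.081), without Day 60 replicate 3 (0.069) and with only these 2 days in the fit (0.057). At Day 113 the wells with 59.1 and 50.1 CPM had fibroblast sums of 13041 and 11269 CPM, and those with 31.8 and 38.4 CPM had 6758 and 5431. At Day 30 GRB10 stayed at 41.3 to 43.8 CPM while the fibroblast sums ranged from 3353 to 7707 CPM. The Day 30 well with the highest sum had the lowest GRB10. At Day 60 the well with the highest sum (3570 CPM) also had the lowest GRB10 (27.2 CPM). The part of fibroblast content in the GRB10 result was not tested.

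The 19 listed genes of insulin and IGF receptor signalling were all measured. By Day 60, 3 fell (15.8%), from Day 60 to Day 113 4 rose and 2 fell (31.6%), and from Day 30 to Day 113 2 rose and 4 fell (31.6%), with medians of -0.18, 0.11 and 0.00. The shares of all genes were 10.3%, 24% and 34.5%, so the last share was below that of all genes. The receptor IGF1R averaged 190, 183 and 94.1 CPM and fell by 1.01 ± 0.11 from Day 30 to Day 113 (adjusted p = 5.0e-06). The receptor substrates IRS2 and IRS1 fell by 1.36 ± 0.16 (adjusted p = 9.4e-06) and 1.14 ± 0.15 (adjusted p = 3.2e-05). GRB14, the closest relative of GRB10, fell by 1.14 ± 0.34 (adjusted p = 0.015) at 7.02, 6.36 and 3.18 CPM. IGF2, the imprinted growth factor of the pathway, named here after its values were seen, averaged 396, 247 and 331 CPM. It fell by 0.68 ± 0.16 by Day 60 (adjusted p = 0.013, and 0.084 without Day 60 replicate 1).

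NNAT (chr20:37521206-37523693, plus strand) encodes neuronatin, a small proteolipid of the endoplasmic reticulum membrane known from the developing brain, and lies inside an intron of BLCAP. It was a low gene here, at 9.24, 10.8, 6.32 and 6.05 CPM at Day 30, 3.99, 5.45 and 4.98 CPM at Day 60, and 2.83, 2.25, 3.11 and 3.65 CPM at Day 113. The 3 days did not overlap. NNAT fell 2.73-fold from Day 30 to Day 113 (-1.45 ± 0.25, adjusted p = 3.3e-04), in 20 of 20 alternatives. Neither interval passed alone (-0.75 ± 0.27, adjusted p = 0.092, and -0.70 ± 0.27, adjusted p = 0.069).

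BLCAP, the host gene, is imprinted in brain and averaged 72.5, 65.7 and 75.3 CPM, and it passed in no pair of days (Day 113 against Day 30, 0.05 ± 0.09, adjusted p = 0.69). The log2 ratio of NNAT to BLCAP averaged -3.20 ± 0.40 (SD, n = 4), -3.78 ± 0.22 (SD, n = 3) and -4.68 ± 0.32 (SD, n = 4). NNAT shares 85 exon bases with BLCAP on the opposite strand. The 7 of 8 neural markers measured summed to 16.8 to 38.4, 17.8 to 42.9 and 16.4 to 29.4 CPM on the 3 days, a sum in which TUBB3 (12.8 to 31.6 CPM) weighs most. The neural markers had a median log2 change of 2.43 by Day 60, with 1 of 7 called, STMN2, which rose by 1.42 ± 0.36 (adjusted p = 0.019). STMN2 was at 2.59, 8.84 and 6.94 CPM in the Day 60 wells and 1.68 to 2.67 CPM at Day 30, so the days overlapped. This call was not recomputed under the alternatives. The fall of NNAT from Day 30 to Day 113 ran alongside that of all 8 endoderm markers. The part of neural and endoderm cells in the NNAT result was not tested. Neuronatin resembles the small membrane regulators of the calcium pump. Of 9 such genes and pumps listed, 5 were measured, and from Day 30 to Day 113 only SLN, or sarcolipin, an atrial inhibitor of the pump, passed, falling by 2.37 ± 0.42 (adjusted p = 3.9e-04) at 16.3, 3.22 and 3.15 CPM.

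PEG10 (chr7:94656325-94669695, plus strand) derives from a retrotransposon, encodes gag-like and pol-like proteins and is needed for the placenta. It was the highest of the 8 genes, at 767, 675, 800 and 622 CPM at Day 30, 927, 780 and 877 CPM at Day 60, and 951, 860, 959 and 1106 CPM at Day 113. All Day 113 wells were above all Day 30 wells, and Day 60 lay across both. PEG10 rose 1.35-fold from Day 30 to Day 113 (0.44 ± 0.11, adjusted p = 0.0049), in 20 of 20 alternatives. The intervals gave 0.27 ± 0.12 (adjusted p = 0.17) and 0.17 ± 0.12 (adjusted p = 0.32).

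SGCE, a sarcoglycan that starts head to head with PEG10 and is also paternally expressed, averaged 43.6, 55.3 and 68.2 CPM and rose by 0.65 ± 0.10 from Day 30 to Day 113 (adjusted p = 1.3e-04). The log2 ratio of PEG10 to SGCE was 4.03 ± 0.18, 3.96 ± 0.12 and 3.83 ± 0.29 (SD, n = 4, 3 and 4), overlapping on all days. The pair shares 219 exon bases on opposite strands. Of 9 listed neighbours of PEG10, 6 were measured and 3 rose from Day 30 to Day 113: SGCE, CASD1, a sialic acid acetyltransferase (0.68 ± 0.10, adjusted p = 7.4e-05), and TFPI2, a protease inhibitor (2.30 ± 0.41, adjusted p = 4.8e-04). PON2, a lactonase, fell by 0.40 ± 0.11 by Day 60 (adjusted p = 0.025, lost without Day 30 replicate 1 or 2 or Day 60 replicate 1 or 2, with adjusted p up to 0.15) and rose by 0.50 ± 0.11 afterwards (adjusted p = 0.0038).

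Of 18 other retrotransposon-derived gag genes listed, 15 were measured. From Day 30 to Day 113, 3 rose and 2 fell (33.3%), close to the 34.5% of all genes. ZCCHC12, a zinc finger gene of this group, rose by 3.17 ± 0.32 (adjusted p = 1.9e-06) from 1.07 to 9.69 CPM, and PNMA2, which forms capsids, rose by 1.56 ± 0.25 (adjusted p = 2.1e-04). PNMA8A rose by 0.36 ± 0.09 (adjusted p = 0.0049), and PNMA3 fell by 2.84 ± 0.33 (adjusted p = 9.9e-06) from 5.03 to 0.711 CPM.

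PLAGL1 (chr6:143940300-144064599, minus strand) encodes a zinc finger transcription factor that restrains the cell cycle. It measured 44.3, 39.6, 39.9 and 43.8 CPM at Day 30, 50.4, 44.1 and 45.2 CPM at Day 60, and 44.9, 24.6, 38.8 and 31.0 CPM at Day 113. All pairs of days overlapped, and the Day 113 wells spread the most (SD 8.86, against 2.49 and 3.34). No pair of days passed the test: the changes were 0.15 ± 0.16 (adjusted p = 0.65), -0.42 ± 0.16 (0.066) and -0.26 ± 0.15 (0.18). The second-interval change passed in 5 of 20 alternatives: without Day 113 replicate 1 (-0.56, adjusted p = 0.010), with upper-quartile scaling (0.033), a filter at 1 CPM (0.049), a replicate block (0.037) and DESeq2 (0.046). Without Day 113 replicate 1, Day 113 against Day 30 passed too (-0.41, adjusted p = 0.028).

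The PLAGL1 window that it shares with the noncoding RNA HYMAI is shown because both transcripts start there, in the imprinted control region. It is the 250 bases before the start (chr6:144008260-144008509, GRCh38.p14, minus strand), with CG in capitals.
PLAGL1: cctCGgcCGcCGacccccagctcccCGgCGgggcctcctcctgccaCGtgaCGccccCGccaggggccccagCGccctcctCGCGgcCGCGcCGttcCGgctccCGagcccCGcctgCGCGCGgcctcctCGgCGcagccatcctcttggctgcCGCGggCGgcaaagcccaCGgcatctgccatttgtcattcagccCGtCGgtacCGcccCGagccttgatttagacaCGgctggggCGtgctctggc
The stretch holds 32 CG dinucleotides, and the window of 300 bases holds 39, more than 91.3% of all windows and the most of 5 PLAGL1 windows (2 to 39). The window also holds 2 matches of TGCCGC and 1 of GGGGCCCC, a motif of PLAGL1 itself searched on both strands, which 1.95% of all windows hold. HYMAI averaged 0.745, 0.961 and 0.478 CPM, and shares 289 exon bases with PLAGL1 on the same strand, so reads there cannot be assigned.

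Of 6 genes listed around PLAGL1, all measured, 1 fell by Day 60 (16.7%, where 10.3% of all genes passed). From Day 60 to Day 113, 2 rose and 3 fell (83.3%, where 24% of all genes passed). From Day 30 to Day 113, 2 fell (33.3%, near the 34.5% of all genes). PLAGL2, a paralog that promotes growth, fell by 1.04 ± 0.09 (adjusted p = 4.9e-07) at 89.9, 65.7 and 43.7 CPM. CDKN1A, a cell cycle inhibitor that PLAGL1 can induce, fell by 0.68 ± 0.14 (adjusted p = 0.0014). A network of imprinted genes co-expressed with Plagl1 in the mouse gave 10 listed genes besides the 8, all measured, of which 4 rose and 2 fell from Day 30 to Day 113 (60.0%, where 34.5% of all genes passed). CDKN1C, an imprinted growth inhibitor, fell by 2.65 ± 0.26 (adjusted p = 1.5e-06) from 11.04 to 1.75 CPM, and GNAS, the stimulatory G protein subunit, by 0.45 ± 0.09 (adjusted p = 0.0016). DCN, a matrix proteoglycan and 1 of the fibroblast markers, rose by 1.28 ± 0.27 (adjusted p = 0.0015).

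SNRPN (chr15:24823637-24978723, plus strand) encodes SmN, a spliceosomal Sm protein of neurons and heart nearly identical to SNRPB, and lies in the Prader-Willi region. It was a low gene, at 3.36, 2.50, 2.04 and 3.88 CPM at Day 30, 3.54, 2.03 and 4.92 CPM at Day 60, and 2.68, 3.26, 6.05 and 3.93 CPM at Day 113. All days overlapped. The changes were 0.25 ± 0.37 (adjusted p = 0.77), 0.19 ± 0.37 (0.77) and 0.44 ± 0.34 (0.36). A change within those errors was not detectable at this depth and spread.

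The counts of SNRPN need care. It shares 814 exon bases with SNURF, the gene in the same transcript unit. That is 23.8% of its own exons and 69.3% of those of SNURF. SNRPN also shares 541 bases (15.8%) with AC124312.1, a gene absent from the count table, and 141 with SNHG14. These genes all lie on the strand of SNRPN. Reads in such stretches cannot be assigned to 1 gene, and similar sequences of SNRPB may share reads too. SNURF averaged 0.229, 0.432 and 0.582 CPM, while SNHG14, the host of the SNORD clusters, averaged 345, 362 and 344 CPM and passed in no pair of days. The window shared by both transcripts is shown because the Prader-Willi imprinting centre lies there. It is the 250 bases before the start (chr15:24954737-24954986, GRCh38.p14, plus strand), with CG in capitals.
SNRPN: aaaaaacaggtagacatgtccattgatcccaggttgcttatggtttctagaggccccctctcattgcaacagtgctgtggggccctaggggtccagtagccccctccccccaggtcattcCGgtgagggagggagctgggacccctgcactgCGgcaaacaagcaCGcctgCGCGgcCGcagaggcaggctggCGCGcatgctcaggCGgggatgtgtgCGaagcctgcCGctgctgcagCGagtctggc
The stretch holds 12 CG dinucleotides, and the window of 300 bases holds 18, the most of 4 SNRPN windows (2 to 18), with 2 matches of TGCCGC.

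The log2 ratio of SNRPN to SNRPB was -4.39 ± 0.44, -4.06 ± 0.85 and -4.46 ± 0.51 (SD, n = 4, 3 and 4), overlapping on all days. SNRPB itself averaged 60.2, 55.4 and 85.1 CPM and rose by 0.50 ± 0.13 from Day 30 to Day 113 (adjusted p = 0.0070). Of 12 listed Sm and snRNP genes, 10 were measured, and 4 rose and 1 fell over that span (50.0%, where 34.5% of all genes passed). SNRPD3 and SNRPD1, core Sm proteins, rose by 0.65 ± 0.10 (adjusted p = 9.2e-05) and 0.57 ± 0.14 (adjusted p = 0.0055), and SNRPA, a U1 snRNP protein, fell by 0.83 ± 0.13 (adjusted p = 1.9e-04). Of 13 listed neighbours of SNRPN, 12 were measured. NDN, a MAGE family growth suppressor of the region, rose by 0.37 ± 0.11 from Day 30 to Day 113 (adjusted p = 0.013), and the noncoding RNA PWAR6 fell by 0.40 ± 0.13 (adjusted p = 0.021). The PWAR6 call was lost without Day 30 replicate 3 or 4 or Day 113 replicate 1 or 3 (adjusted p up to 0.067).

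Per exon length, taking the union of annotated exons, the order of the 8 genes can be compared. PEG10 stood at 107 ± 12.2, 129 ± 11.2 and 145 ± 15.2 CPM per kb (SD, n = 4, 3 and 4), above every other gene in every library. MEST followed at Day 30 (14.3 to 25.5 CPM per kb), and DLK1 overlapped it (4.50 to 19.2). At Day 60 MEST (7.10 to 10.1) was above DLK1 (4.86 to 7.01), and at Day 113 DLK1 (13.7 to 25.8) was above MEST (9.14 to 12.7), with no overlap on either day. NNAT, PLAGL1 and GRB10 lay between 1.69 and 8.09 CPM per kb on all days. MEG3 (0.933 to 2.49) and SNRPN (0.593 to 1.77) were the lowest, but the MEG3 exon union of 23.2 kb joins many isoforms and lowers its value. SNRPN shares 23.8% of its exons with SNURF on the same strand, so its value may miss reads there.

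Across the loci, 36 of 47 listed neighbours were measured, and of these 1 rose and 2 fell by Day 60 (8.33%), 5 rose and 1 fell from Day 60 to Day 113 (16.7%), and 4 rose and 3 fell from Day 30 to Day 113 (19.4%). The shares of all genes were 10.3%, 24% and 34.5%, the difference was not tested, and many neighbours are low genes. Among the neighbours that passed, PHACTR2 next to PLAGL1, a regulator of actin, rose by 0.37 ± 0.12 from Day 60 to Day 113 (adjusted p = 0.035), a call lost in 7 of 20 alternatives, among them those without Day 60 replicate 1 or 2 or Day 113 replicate 1, 3 or 4 (adjusted p up to 0.14).

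**Figure D5:**
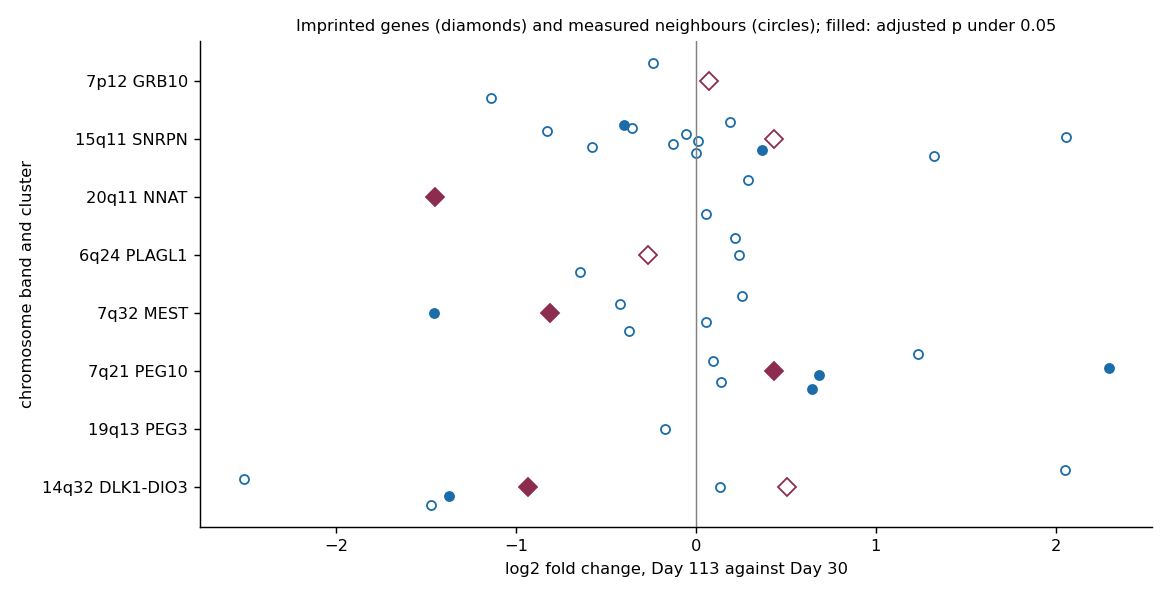
Log2 fold change from Day 30 to Day 113 of the 8 imprinted genes (diamonds) and their 36 measured neighbours (circles) by cluster, filled where the adjusted p was under 0.05. At 7q21, 3 neighbours and PEG10 lay right of 0 as filled points, and at 14q32 MEG3 and 1 neighbour lay left of 0 while DLK1 was an open point to the right.

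Of 36 other imprinted genes listed, 30 were measured, and 4 rose and 8 fell from Day 30 to Day 113 (40.0%, where 34.5% of all genes passed). WT1, a transcription factor that is also an epicardial marker, rose by 3.07 ± 0.18 (adjusted p = 1.3e-08), and DIRAS3, a small GTPase that restrains growth, rose by 2.53 ± 0.13 (adjusted p = 1.5e-09) at 23.2, 51.6 and 134 CPM. KCNQ1OT1, the noncoding RNA that silences the CDKN1C cluster, fell by 1.28 ± 0.23 (adjusted p = 5.5e-04), in the same direction as CDKN1C. Of 17 genes that set or keep imprints, 11 were measured, and 2 rose and 5 fell from Day 30 to Day 113 (63.6%, where 34.5% of all genes passed). DNMT3B and DNMT3A, de novo methyltransferases, fell by 1.06 ± 0.22 (adjusted p = 0.0014) and 0.46 ± 0.09 (adjusted p = 0.0014). TRIM28 fell by 0.46 ± 0.09 (adjusted p = 0.0013), and UHRF1, which brings DNMT1 to newly copied DNA, rose by 1.00 ± 0.29 (adjusted p = 0.013) from 4.99 to 10.0 CPM.

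The genes most like each of the 8 in profile were ranked by Pearson correlation of log2 CPM over the 11 libraries among 11939 genes with a mean of at least 5 CPM. The points share library and day, and no p is given. For MEG3 they were TNC, an extracellular matrix protein (r = 0.981), and SEPT8, a septin (0.970). For MEST they were KDELR2, a retrieval receptor of the secretory pathway (0.977), and S100A11, a calcium-binding protein (0.969). For DLK1 they were CRISPLD2 (0.958) and EPHX1, an epoxide hydrolase (0.954), and for GRB10 PXDN, a matrix peroxidase (0.951), and DOCK4 (0.948). For PLAGL1 they were ZNF704 (0.965) and RORA, a nuclear receptor (0.957), for NNAT PATJ, a polarity protein (0.966), and PTPRJ, a receptor phosphatase (0.949), and for PEG10 CREB1, a transcription factor (0.944), and LRRC8C, an anion channel subunit (0.936). SNRPN had the lowest best match, ZNRF2, a ubiquitin ligase (0.850), followed by MORC3 (0.820).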

How the data were processed

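The deposited files are 1 table of raw read counts by gene symbol and 1 of TPM values. Per the submitters' processing notes, reads were handled with STAR 2.5.3a and featureCounts 2.0.3 on hg38; strand settings and annotation are not given in the sources used here. The deposited TPM values were not used for comparisons, since the ratio of a gene's count to its TPM varied across libraries by 10.9-fold (GRB10) to 403-fold (PLAGL1).

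Counts of 19990 genes in 11 libraries (24.1 to 34.5 M counts each, M being 1000000) were fitted with edgeR 4.0.16 in R 4.3.3 (glmQLFit, glmQLFTest, TMM, day as the only factor, all libraries in 1 fit). Filtering by filterByExpr (minimum count 10) kept all 19990 genes. Adjusted p-values are Benjamini-Hochberg over all genes, and standard errors (the figure after ± of a log2 fold change) were derived from the fold change and the F statistic. Ratios used log2 counts with a pseudocount of 0.5. Gene positions and exons came from GENCODE 29 (GRCh38) and promoter windows, found for 5 of the 8 genes, from RefSeq (GRCh38.p14). The procedure was tested on simulated data. No label says that replicate numbers mark a shared plate or batch, so replicate number was not a term and was used only in an alternative. Same-numbered wells deviated together only weakly (no pair's correlation over 0.1). Still, the best match of a well in another day had the same number in 17 of 20 comparisons.

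The genes and the gene lists were chosen with earlier results of these data known. From the lists of neighbours, genes that passed in any pair of days with at least 5 CPM in the higher day are named, and from the other lists at most the 4 called genes with the largest change from Day 30 to Day 113. For each imprinted gene, the 2 most similar genes are named. RTL1, DIO3, MEG8, COPG2IT1, IGF2, HYMAI, SNURF, SNHG14 and cell type markers such as STMN2 are named outside this rule. Alternatives were DESeq2 1.42.0, limma-voom (limma 3.58.1), other scalings, filters, a stricter threshold, a replicate block and leaving out each library.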

Additional observations from a re-analysis of the deposited data

Results flagged for a closer look

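For 4 of the 8 genes, the change from Day 60 to Day 113 differed from the change from Day 30 to Day 60 by edgeR's quasi-likelihood test of that difference. The difference (second change minus first) was 2.85 on the log2 scale for DLK1 (SE 0.67, adjusted p = 0.015), which fell and then rose. It was 1.66 for MEST (SE 0.36, adjusted p = 0.011) and 0.99 for MEG3 (SE 0.28, adjusted p = 0.035), both of which fell in the first interval and did not pass in the second. It was 1.12 for GRB10 (SE 0.30, adjusted p = 0.031), whose first change missed the threshold. All 4 calls were lost without Day 60 replicate 1 (adjusted p of 0.067, 0.083, 0.18 and 0.16 for DLK1, MEST, MEG3 and GRB10) and without Day 60 replicate 3 (0.096, 0.059, 0.11 and 0.14). Calls among all genes fell in these fits too, from 1868 to 643 and 774. The DLK1 difference was also lost with robust dispersions (adjusted p = 0.088). The MEG3 difference was lost in 7 of 19 alternatives, also with upper-quartile scaling (0.054) and without Day 30 replicate 1, 2 or 3 (0.052, 0.079 and 0.063) or Day 60 replicate 2 (0.067). The GRB10 difference was lost in 5 of 19, also without Day 30 replicate 2 or 3 (0.059 and 0.054) or Day 113 replicate 3 (0.051). The Day 60 group, at 3 wells, enters both intervals. At Day 30 and Day 113, no well was flagged by Dixon's test (16 groups of 4 wells, critical value 0.829). With 4 wells only a very wide gap is flagged, and the fourth Day 30 well of DLK1 (23.9 CPM against 76.5 to 102) was not. The 3 Day 60 wells were too few to examine.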

How the results depend on the processing

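Of 556 recomputed changes of the 8 genes, 504 kept their direction and side of the threshold, 33 lost a call, 12 gained one and 7 changed sign, none of them a called change. MEG3 from Day 60 to Day 113 was -0.0388 with upper-quartile scaling, and ranged from -0.137 to 0.126 when 1 library was left out. SNRPN ranged from -0.0542 to 0.523 (Day 30 to Day 60) and from -0.0907 to 0.505 (Day 60 to Day 113), and GRB10 from Day 30 to Day 113 from -0.0907 to 0.204, when 1 library was left out. With a threshold of 0.01, 937, 2545 and 4552 genes were called in the 3 pairs of days, 4800 over all days and 618 for the interval difference, and of the 8 genes 1 was called from Day 60 to Day 113 and 0 for the interval difference (edgeR; 4 at an unadjusted p under 0.05). With 1 library left out, Day 60 against Day 30 gave 1220 to 2618 genes and 2 to 4 of the 8. In the same fits the interval difference gave 643 to 2221 genes and 0 to 4 of the 8. Day 113 against Day 60 gave 3317 to 4735 genes and 1 to 3 of the 8. With only the 2 days compared, Day 113 against Day 60 gave 3638 genes and 1 of the 8. The numbers were not taken to pair the wells: same-numbered wells correlated at 0.0227 to 0.0761 over 10 pairs, 0 of them over 0.1, although in 17 of 20 comparisons the best match had the same number. With a replicate block, 4 of the 8 and 4954 of all genes were called from Day 60 to Day 113. The main fit called 2 of the 8 and 4790 of all genes there. Of 69 changes of other genes, 14 lost their call under an alternative and 0 changed sign.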
